A study of Drosophila melanogaster with 12 samples.

Results

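Circular RNAs of 3 or more exons in Drosophila larval carcasses were examined in Nxt1 trans-heterozygotes and in wild type (WT). A circle was included when its deposited name placed the last exon at least 2 numbers after the first, in the circle list of either genotype. This held for 256 of the 729 circles in the 2 lists together, from 200 host genes. Of these, 158 stood in the Nxt1 list of 467 circles and 194 in the WT list of 597 circles.

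The Nxt1 larvae were trans-heterozygotes listed under the strain yw, and the WT larvae were of the strain w1118, so genotype and strain cannot be told apart. The labels do not name the Nxt1 alleles. Both were stationary larvae of the 3rd instar, dissected down to the carcass, which is mainly body wall muscle and epidermis. The study asked how Nxt1, a partner of the mRNA export receptor, affects circular RNAs in relation to pre-mRNA and mRNA. Total RNA was either treated with RNase R for 30 minutes or mock treated, with 3 libraries of each kind per genotype, 12 in all. The labels use the letters R and M, read here as RNase R and mock. Circles came from the R libraries, and mRNA and pre-mRNA from the M libraries. Whether replicates came from separate larvae is not stated, so p-values measure the spread between these libraries, which may be technical.

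A circular RNA forms when the splicing machinery joins the end of an exon to the start of an exon upstream of it, a reaction called back-splicing. Having no free ends, circles resist RNase R, which degrades linear RNA. In fly cells the helicase Hel25E is known to be needed for the export of longer circles from the nucleus. A circle of several exons may keep all exons between its ends or skip some. The deposited name gives only the ends, so the exon number here is that spanned, and the length in bases is unknown.

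The R libraries held 48182700, 71326500 and 78946600 reads in Nxt1 and 69690700, 78830800 and 92273200 reads in WT. Each listed circle had reads for only 2 of the 3 libraries of a genotype, recognised here from the totals that counts and scaled values imply. The sources used here do not state the rule behind this listing. A circle absent from a list is therefore called not listed, not absent. Levels, spreads and p-values of circles rest on the 2 listed libraries alone, and the effect of this selection was not tested. Levels are back-splice reads per 1e+09 library reads, called scaled reads below, and libraries are called lowest, middle and highest by their total within a genotype. The circles of 3 or more exons took 5675, 6538 and 2703 reads in the Nxt1 libraries, against 8233, 9501 and 3690 reads in the WT libraries, in order of rising total. In the M libraries the Nxt1 mRNA measured 6.03, 6.57 and 5.72 FPKM (a read level per gene length and library size) in Nxt1 carcasses, against 10.7, 8.31 and 9.91 FPKM in WT carcasses. The groups did not overlap (log2 fold change −0.58, adjusted p = 0.0164 by limma), although the call held in 3 of 6 fits without 1 replicate (adjusted p up to 0.0645). Summed levels of body wall muscle markers, with 9 of 9 found, lay between 185800 and 255600 FPKM in Nxt1 and between 55230 and 150500 FPKM in WT. Those of epidermis lay between 27310 and 31340 FPKM in Nxt1 and between 5468 and 9315 FPKM in WT, with 7 of 7 found. The sums were also higher in Nxt1 without overlap for fat body (3812 to 5655 FPKM in Nxt1 and 1773 to 2193 FPKM in WT), hemocytes (403 to 628 FPKM in Nxt1 and 136 to 215 FPKM in WT) and salivary gland (284 to 796 FPKM in Nxt1 and 22.2 to 182 FPKM in WT). They overlapped for midgut (21.1 to 253 FPKM in Nxt1 and 1.71 to 76.5 FPKM in WT) and for neurons (30.1 to 36.2 FPKM in Nxt1 and 32.5 to 34.2 FPKM in WT). No marker of these 7 lists was at 0 in all libraries. A sum weights genes by the lengths behind their FPKM, which appear out of order. In bulk tissue, fewer cells of a type and less RNA per cell cannot be told apart. The markers' part in the circle values below was not tested.

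Circles of 3 or 4 exons made up most of the set. There were 119 circles of 3 exons, 75 of 4 exons, 39 of 5 exons and 23 of 6 or more, with a median of 4. Exon 2 was the first exon in 96 circles (37.5%), against 42.3% of 246 circles of 2 exons and 59.0% of 227 circles of 1 exon. The most distant start was exon 26, and the most distant end exon 28. Of the 200 hosts, 155 had 1 such circle, 36 had 2, 7 had 3 and 2 had 4, and 73 hosts also had a circle of 1 or 2 exons.

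**Figure D1:**
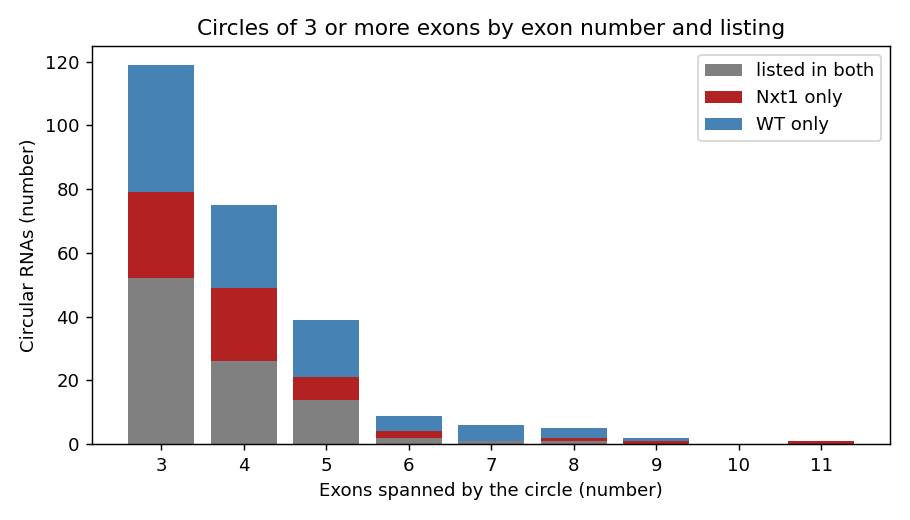
Number of circles of 3 or more exons by the number of exons spanned, with circles listed in both genotypes in grey, in Nxt1 only in red and in WT only in blue. The 119 circles of 3 exons form the tallest bar, and 1 circle spans 11 exons.

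The overlap of the 2 lists is given as counts, with no test. Of the 256, 96 (37.5%) were listed in both genotypes, 62 (24.2%) in Nxt1 only and 98 (38.3%) in WT only. The share in both was 54.5% for circles of 2 exons and 46.3% for circles of 1 exon. Put per list, 60.8% of the Nxt1 list's circles of 3 or more exons were in the WT list, and 49.5% of the WT list's were in the Nxt1 list. For circles of 2 exons these shares were 78.4% and 64.1%, and for circles of 1 exon 76.1% and 54.1%. Circles listed once had few reads. Those in Nxt1 only had 3 to 115 reads in all (median 17), and those in WT only 2 to 129 (median 24.5). Those in both had a median of 48.5 reads in Nxt1 and 64.5 reads in WT. The part of read depth in the listing was not tested.

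Replicate libraries of 1 genotype differed widely for single circles. Between the 2 listed libraries the median ratio was 2.03-fold in Nxt1 and 1.77-fold in WT. It was over 4-fold for 38 of 158 circles (24.1%) in Nxt1 and for 39 of 194 (20.1%) in WT. For circles of 2 exons the median ratio was 1.90-fold in Nxt1 and 1.56-fold in WT, with 16.4% and 15.8% over 4-fold. For circles of 1 exon it was 1.73-fold in Nxt1 and 1.65-fold in WT, with 18.1% and 11.9% over 4-fold. Libraries also differed over circles of any exon number, in reads already scaled to library totals. As median log2 ratios, the lowest Nxt1 library was 0.49 above the middle and 0.64 above the highest. The middle Nxt1 library was 0.09 above the highest. In WT the same medians were 0.06, 0.40 and 0.11. A fold may thus depend on which 2 libraries are listed. Elk(3-6), from a potassium channel gene and chosen after its values were seen, had 29 reads in one Nxt1 library and 1 in the other.

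The circle from exons 2 to 4 of Gyg, which encodes glycogenin, the primer of glycogen synthesis, far exceeded the others. Gyg(2-4) had 42567 and 38765 scaled reads in Nxt1, against 46264 and 47079 scaled reads in WT. The groups did not overlap, with both Nxt1 values below both WT values, but the difference missed the threshold (log2 fold change −0.20 ± 0.22 (SE), adjusted p = 0.614 by edgeR's quasi-likelihood test). Its host mRNA was higher in Nxt1, at 696 ± 41.0 FPKM against 391.8 ± 83.7 FPKM in WT (SD, n = 3 each, log2 fold change 0.85, adjusted p = 0.0204 by limma). That call held in 2 of 6 fits without 1 replicate (adjusted p up to 0.0733). Gyg(2-5), named on another transcript of the gene, was listed in Nxt1 only, with 23 and 12 reads. Gyg(2-4) carried no value for the highest library of either genotype.

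Of the other 9 most abundant circles listed in both genotypes, 2 passed the test and are described with the called circles. CG33111(3-7) had 8530 and 5636 scaled reads in Nxt1, against 5835 and 5553 in WT, and the groups overlapped. CG44085(7-9) had 1495 and 2271 in Nxt1, against 4250 and 4132 in WT, where both were higher (log2 fold change −1.15, adjusted p = 0.0686 by edgeR). Neither CG gene is given a role here. The circle sima(2-6), from the gene of the fly HIF-alpha subunit that responds to low oxygen, had 3424 and 2926 scaled reads in Nxt1, against 1497 and 1808 in WT. Its log2 fold change was 0.94 (adjusted p = 0.138 by edgeR), and the groups did not overlap. The circle pum(4-6), from the gene of the translational repressor Pumilio, had 2823 and 2470 scaled reads in Nxt1, against 875 and 1234 in WT (log2 fold change 1.33, adjusted p = 0.0669 by edgeR). Mbs(3-5), from the gene of the targeting subunit of myosin phosphatase, had 2740 and 2369 scaled reads in Nxt1, against 1573 and 1864 in WT. Both Nxt1 libraries were above both WT libraries for sima(2-6), pum(4-6) and Mbs(3-5), but none passed the test. With 2 listed libraries per genotype, circles without a change can often separate too. Such separation is therefore only a description wherever it is given for a circle. Its share among all 335 circles tested was not counted. The calls of pum(4-6) and CG44085(7-9) turned on the method. The pum(4-6) difference passed in 7 of 12 alternatives (adjusted p = 0.0273 by DESeq2 and 0.0460 by limma), and CG44085(7-9) in 6 of 12 (0.0220 by DESeq2 and 0.0458 by limma). The sima(2-6) difference passed with library factors from the circles, an alternative chosen after seeing the data (adjusted p = 0.0294 by edgeR). For CG17549(3-5), with 2657 and 1710 in Nxt1 against 3260 and 3587 in WT, and for goe(2-4), with 1806 and 1094 in Nxt1 against 2600 and 2296 in WT, both Nxt1 libraries were below both WT libraries. These 2 also missed the threshold, with adjusted p = 0.291 and 0.261 by edgeR.

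**Figure D2:**
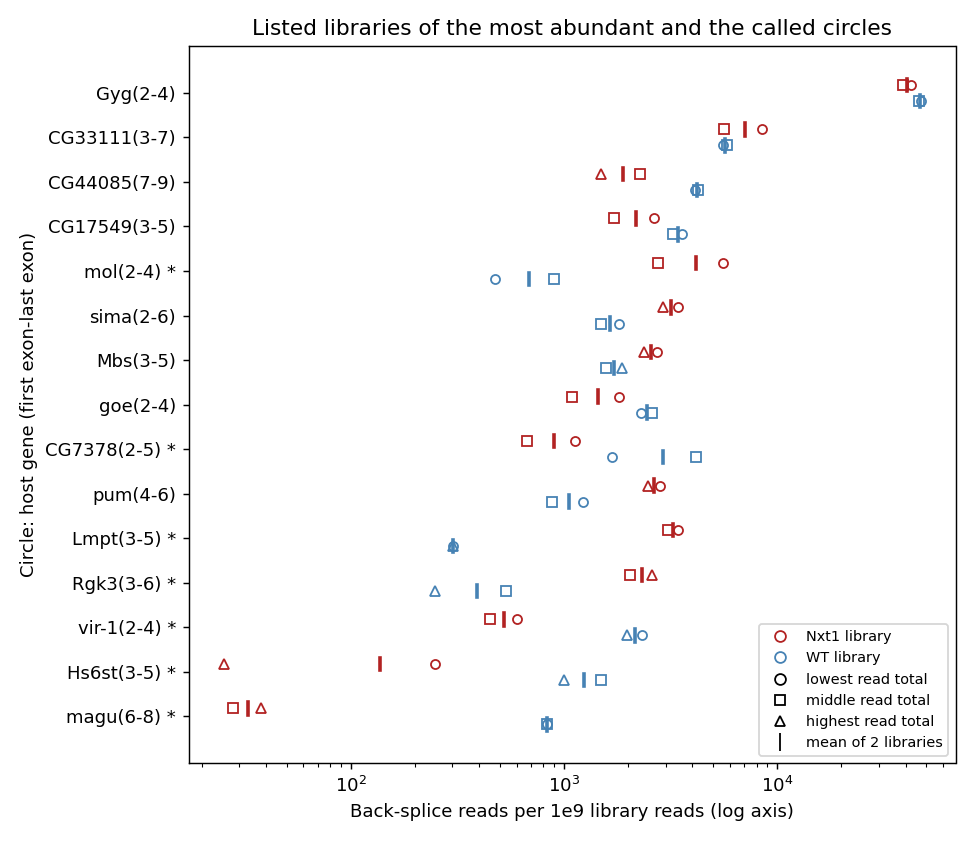
Scaled back-splice reads of each listed library on a log axis for the 10 most abundant circles and the called circles (asterisks), Nxt1 in red above WT in blue. Symbols give the library's place by read total and bars the mean of 2 libraries. Gyg(2-4) lies at 38765 or above in all 4 libraries, and magu(6-8) is lowest in Nxt1.

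Of the 96 circles of 3 or more exons listed in both genotypes, 3 rose and 4 fell in Nxt1 at an adjusted p below 0.05 (edgeR's quasi-likelihood test over all 335 circles listed in both). Among all 335 tested, 5.97% were called, 2.69% higher and 3.28% lower. The share among these circles is close to that, so the number of calls is not a result about them. The median log2 fold change was −0.15 for these 96, −0.24 for 134 circles of 2 exons and −0.54 for 105 of 1 exon, against −0.26 for all 335. With the median of all circles set to 0, the split became 4 higher and 3 lower. By limma with all libraries 10 were called. With limma and 1 library left out, the calls were 4 without the highest Nxt1 library and 4 without the middle WT library. They were 5 without the lowest WT library and 9 or 10 in the other fits. A circle listed in the library left out keeps 1 library of that genotype, which is then assumed to vary like the others, so a call may be lost with the fold unmoved. Only circles with reads in both genotypes could be tested, so nothing is said of the circles listed once.

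Among the called circles, the one that rose most was from Limpet, which encodes a LIM domain protein of muscle. Lmpt(3-5) had 3424 and 3070 scaled reads in Nxt1, against 301 and 303 in WT, from 165 and 219 reads in Nxt1 and 21 and 28 in WT. Both Nxt1 values stood about an order of magnitude above both WT values (10.7-fold, log2 fold change 3.42 ± 0.45 (SE), adjusted p = 0.000145 by edgeR). The host mRNA averaged 550 ± 59.9 FPKM in Nxt1 and 415 ± 37.8 FPKM in WT (SD, n = 3 each), a change that missed the threshold (log2 fold change 0.40, adjusted p = 0.0568 by limma). Lmpt(4-5), which ends at the same exon, was listed in WT only, with 20 and 58 reads.

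The other 2 risers came from mol, whose product moladietz is needed for maturation of the enzyme Duox, and Rgk3, a small GTPase of a family known to inhibit voltage-gated calcium channels. The circle mol(2-4) had 5583 and 2762 scaled reads in Nxt1, against 901 and 474 in WT (6.02-fold, log2 fold change 2.59, adjusted p = 0.00246 by edgeR). Its host mRNA had a log2 fold change of −0.28 (adjusted p = 0.135 by limma). A second circle of the gene, mol(4-5), had 13 and 7 reads in Nxt1 against 19 and 28 reads in WT (log2 fold change −0.64, adjusted p = 0.715 by edgeR). Rgk3(3-6) had 2597 and 2033 scaled reads in Nxt1, against 533 and 249 in WT (5.94-fold, log2 fold change 2.57, adjusted p = 0.00247 by edgeR). Its host mRNA had a log2 fold change of 0.01 (adjusted p = 0.990 by limma), and its pre-mRNA one of 0.69 (adjusted p = 0.370). In all 3 risers both Nxt1 libraries were above both WT libraries. Without the highest Nxt1 library, which leaves Rgk3(3-6) 1 Nxt1 library, its call was lost (adjusted p = 0.131 by limma), with a log2 fold change of 2.48 against 2.65 by limma with all libraries.

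Among the called circles, the one that fell most was from magu, which encodes a secreted protein that regulates BMP signaling. The circle magu(6-8) had 38.0 and 28.0 scaled reads in Nxt1, against 837 and 832 in WT. The Nxt1 values rest on 3 and 2 reads and the WT values on 66 and 58 reads (log2 fold change −4.59 ± 0.92 (SE), adjusted p = 0.00504 by edgeR). Hs6st(3-5), from the gene of heparan sulfate 6-O-sulfotransferase, had 249 and 25.3 scaled reads in Nxt1, against 1484 and 997 in WT. Both Nxt1 libraries were lower than both WT libraries, with 12 and 2 reads in Nxt1 and 117 and 92 in WT (log2 fold change −3.28, adjusted p = 0.0229 by edgeR). Leaving out a listed library left 1 library in that genotype and could end these calls. The magu(6-8) call was lost without the middle WT library (log2 fold change −4.63, adjusted p = 0.239 by limma) and without the lowest (−4.64, adjusted p = 0.119), while the fold stayed at the −4.63 that limma gave with all libraries. The Hs6st(3-5) call was lost without the middle WT library (−3.62, adjusted p = 0.239 by limma) and without the highest Nxt1 library (−2.28, adjusted p = 0.131), against −3.91 by limma with all libraries. Their host mRNAs had log2 fold changes of 0.49 for magu and −0.12 for Hs6st, neither past the threshold (adjusted p = 0.0625 and 0.339 by limma).

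The other 2 circles that fell came from vir-1, a gene induced by virus infection, and CG7378. The circle vir-1(2-4) had 602 and 449 scaled reads in Nxt1, against 2325 and 1983 in WT (0.243-fold, log2 fold change −2.04, adjusted p = 0.0132 by edgeR). Its host mRNA had a log2 fold change of −0.33 (adjusted p = 0.0632 by limma). Other circles of vir-1 were split between the lists, with vir-1(3-4) in WT only at 74 and 52 reads. The circle vir-1(3-5), named on another transcript of the gene, was in Nxt1 only at 5 and 3 reads. CG7378(2-5) had 1121 and 673 scaled reads in Nxt1, against 4161 and 1679 in WT (0.305-fold, log2 fold change −1.71, adjusted p = 0.0426 by edgeR). Its host mRNA went the other way, at 321 ± 8.38 FPKM in Nxt1 and 196 ± 19.7 FPKM in WT (SD, n = 3 each, log2 fold change 0.71, adjusted p = 0.00650 by limma). CG7378(2-5) was the least stable of the 7, keeping its call in 7 of 12 alternatives. Without the lowest WT library, which leaves 1 WT library, vir-1(2-4) lost its call (−1.93, adjusted p = 0.119 by limma, against −2.04 with all libraries). Without the middle WT library CG7378(2-5) had a log2 fold change of −0.95 (adjusted p = 0.50 by limma), and without the middle Nxt1 library one of −1.24 (adjusted p = 0.189 by limma), against −1.61 with all libraries. Without the highest Nxt1 library, which holds no value of CG7378(2-5), the fold stayed at −1.61 and the adjusted p was 0.142 by limma.

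**Figure D3:**
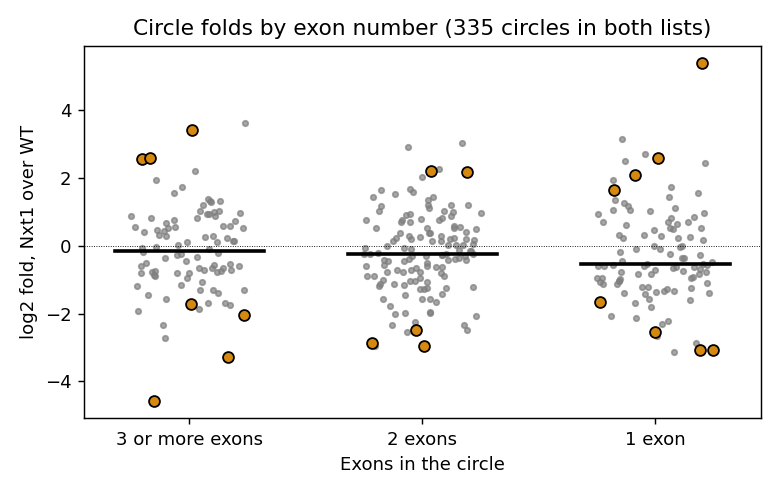
Log2 fold change, Nxt1 over WT, of the 335 circles listed in both genotypes, by exon number, with called circles in orange and a bar at each median. The medians are −0.15 for 3 or more exons, −0.24 for 2 exons and −0.54 for 1 exon, and points spread widely around each.

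Together the circles of 3 or more exons took overlapping shares of all listed back-splice reads in the 2 genotypes. The share was 25.4%, 34.3% and 20.5% in the Nxt1 libraries, against 29.5%, 28.0% and 17.0% in the WT libraries, in order of rising total. The means were 26.7% ± 7.0 in Nxt1 and 24.8% ± 6.84 in WT (SD, n = 3 each), and the ranges overlapped. A two-sided exact permutation test gave p = 0.8, where 3 against 3 libraries cannot go below 0.1. Gyg(2-4) took much of it in the lowest and middle libraries. It was not listed for the highest library of either genotype, so the spread of these shares depends on the listing. Without Gyg(2-4) the shares were 17.88%, 23.15% and 20.49% in Nxt1, against 20.08%, 19.36% and 16.97% in WT, in the same order. They averaged 20.5% ± 2.64 in Nxt1 and 18.8% ± 1.63 in WT (SD, n = 3 each, exact permutation p = 0.4).

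The circles listed in 1 genotype came from hosts of many kinds. The 4 highest in Nxt1 only were Hil(2-4) with 44 and 71 reads, shd(3-7) with 32 and 26, bt(12-16) with 21 and 43, and Pka-R2(2-4) with 19 and 20. Hil encodes a transglutaminase-related protein, shd the enzyme that makes 20-hydroxyecdysone, bt the giant muscle protein projectin, and Pka-R2 a regulatory subunit of protein kinase A. Listed in WT only were Samuel(3-6) with 48 and 77 reads, CG17839(8-11) with 83 and 32, CG40006(2-4) with 52 and 77, cora(8-11) with 62 and 51, axo(2-6) with 63 and 38, and Pde8(2-4) with 35 and 43. The cora gene encodes a septate junction protein, axo a neurexin-related protein and Pde8 a cyclic nucleotide phosphodiesterase. For Samuel(3-6), a circle of the same exon numbers on another transcript of the gene was listed in Nxt1 with 25 and 5 reads. In all, 7 such pairs of circles listed once shared host and exon numbers under different transcripts. They are among 11 pairs that shared host and the number of exons spanned. The 11 include bt(12-16) and bt(17-21), which are different exons of 1 transcript. Exon numbers of different transcripts need not be the same exons.

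The circles spanning the most exons mostly stood in 1 list, and those of 9 and 11 exons had 10 or fewer reads in each listed library. Itpr(2-12), of 11 exons, from the gene of the IP3 receptor that releases calcium, was listed in Nxt1 only with 2 and 1 reads. The 2 circles of 9 exons were CG34126(8-16), in Nxt1 only with 7 and 10 reads, and Ca-alpha1T(8-16), in WT only with 1 and 1, from a T-type calcium channel gene. Among the 5 circles of 8 exons, pyd(6-13), from the fly ZO-1 gene, had 5 and 1 reads in Nxt1 only. In WT only were Mbs(10-17) with 8 and 24 reads, Gdap2(2-9) with 29 and 16, and CanA1(2-9), from a calcineurin gene, with 28 and 18. CG17839(4-11) was listed in both, with 39 and 26 reads in Nxt1 and 12 and 21 in WT (log2 fold change 0.92, adjusted p = 0.525 by edgeR).

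Genes with several such circles showed how ends were combined. The gene bt had 4, none of them in both lists: bt(6-8) with 18 and 19 reads and bt(12-16) in Nxt1, and bt(9-12) with 10 and 4 and bt(17-21) with 8 and 19 in WT. The bt mRNA averaged 12016 ± 1199 FPKM in Nxt1 and 5250 ± 1574 FPKM in WT (SD, n = 3 each, log2 fold change 1.23, adjusted p = 0.0172 by limma). The bt call held in 2 of 6 fits without 1 replicate (adjusted p up to 0.0666). Of the 4 circles of l(3)80Fg, l(3)80Fg(3-6) had 8 and 36 reads in Nxt1 and 101 and 84 in WT (log2 fold change −1.67, adjusted p = 0.140 by edgeR). Its mRNA was lower in Nxt1 (log2 fold change −0.56, adjusted p = 0.00747 by limma). Iml1, which encodes a subunit of the GATOR1 complex that restrains TORC1, had 3 circles in both lists and an mRNA log2 fold change of 0.00 (adjusted p = 0.996 by limma). Iml1(8-10) had 17 and 31 reads in Nxt1 and 89 and 85 in WT (log2 fold change −1.57, adjusted p = 0.136 by edgeR). Iml1(9-12) had 3 and 44 reads in Nxt1 and 52 and 52 in WT, and Iml1(9-13) had 19 and 18 in Nxt1 and 9 and 70 in WT, so libraries within a genotype were far apart. Mbs had Mbs(3-5) in both lists and Mbs(3-6) with 22 and 18 reads and Mbs(10-17) in WT only. Over 25 pairs of circles named on 1 transcript, from 22 hosts, 6 shared the first exon, 9 the last and 10 neither.

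**Figure D4:**
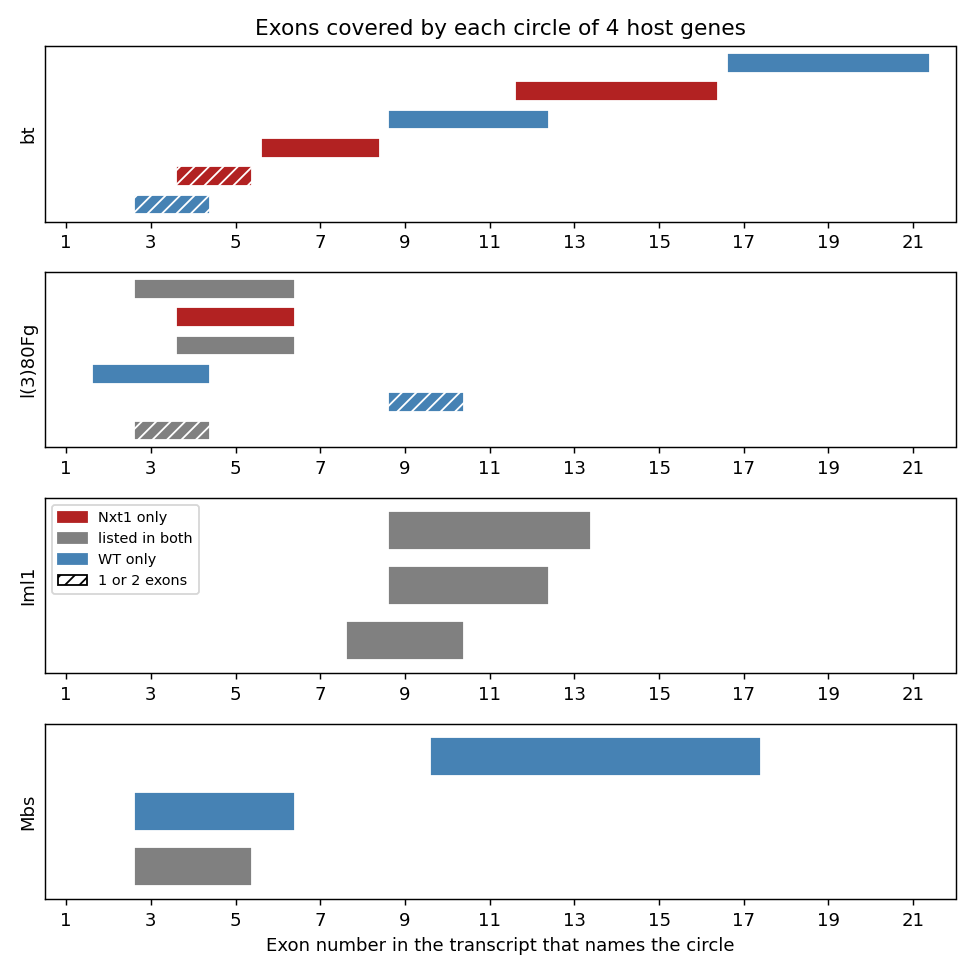
Exons covered by each circle of bt, l(3)80Fg, Iml1 and Mbs, along the exon numbers of the transcript that names the circle, with Nxt1 only in red, both lists in grey, WT only in blue and circles of 1 or 2 exons hatched. The 3 circles of Iml1 overlap, whereas those of bt run along the gene. Bars of 1 gene may use different transcripts.

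In 18 hosts a circle of 3 or more exons and one of 1 or 2 exons were both listed in both genotypes. The longer had the higher log2 fold change in 12 of them and the same sign in 9, with a median difference of 0.51. The difference was not tested.

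The share of hosts whose mRNA changed was near that of all genes. In mRNA 193 of 200 hosts were tested by limma, and 28 were higher and 19 lower in Nxt1 (24.4%), against 21.6% of all genes tested, 12.5% higher and 9.1% lower. The 47 calls became 24, 21 and 22 without Nxt1 replicate 1, 2 or 3, and 20, 37 and 80 without WT replicate 1, 2 or 3. The median log2 fold change was 0.03 for hosts and 0.01 for all genes. In pre-mRNA 143 hosts were tested, and 4 were higher and 1 lower (3.50%), against 1.48% of all genes tested, 0.839% higher and 0.643% lower. These 5 hosts were named after their values were seen. They were CG13579 (log2 fold change 2.82), CG42402 (1.35), Pka-C3 (0.94) and Ptp10D (0.84), all higher in Nxt1, and CG10576 (−1.22), which was lower. Pka-C3 is a catalytic subunit related to protein kinase A and Ptp10D a receptor tyrosine phosphatase. Their adjusted p by limma lay between 0.00781 and 0.0491. No host was called by limma without Nxt1 replicate 1, 2 or 3 (28, 23 and 28 at an unadjusted p below 0.05), 1 was without WT replicate 1 or 2, and 7 were without WT replicate 3. With edgeR, reads recovered from the FPKM gave 19 called hosts, an alternative chosen after seeing the data.

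The fold changes of circles spread more widely than those of their hosts. Over 94 circles with a tested host, the log2 fold change had an SD of 1.35 for circles and 0.453 for host mRNAs, with values of a host on log2(FPKM + 1). The circle was above its host in 40, with a median difference of −0.28, and the sign was opposite in 47. Spearman's rho across these circles was 0.05, which is a description, since circles share libraries and several share hosts. Circle folds rest on 2 listed libraries per genotype, often with few reads, and host folds on 3 libraries. Circle folds thus carry more measurement error, whose part in the SDs, signs and rho was not tested. Among 13 circles of hosts whose mRNA rose, 4 had a log2 fold change above 0 (median −0.36). Among 11 circles of hosts whose mRNA fell, 6 were below 0 (median −0.80). Of all 96 circles of 3 or more exons tested, 45 were above 0 (median −0.15), and these small counts were not tested. Examples chosen after their values were seen are the 2 circles of hlk, whose mRNA rose by 1.52 on the log2 scale, with hlk(4-8) at −0.80 and hlk(9-12) at −2.73 (adjusted p = 0.236 by edgeR). In the other direction, Cyp18a1(2-4), from the gene of an enzyme that inactivates ecdysteroids, had −2.34 (adjusted p = 0.0839 by edgeR) while its mRNA fell by 1.14 on the log2 scale, a call held in 2 of 6 fits without 1 replicate (adjusted p up to 0.0992 by limma).

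**Figure D5:**
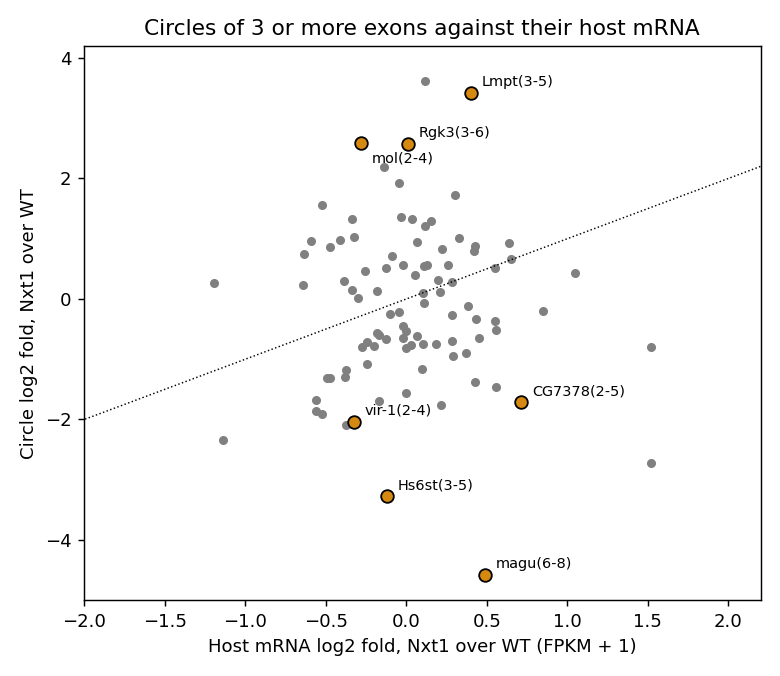
Log2 fold change, Nxt1 over WT, of each circle of 3 or more exons (vertical) against that of its host mRNA on log2(FPKM + 1) (horizontal), with a dotted line of equality and the 7 called circles in orange. Circles spread from below −4 to above 3, whereas most hosts lie within 1 of 0.

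The genes that make, export and respond to circles were compared in mRNA from chosen lists. Of 22 genes of circle biogenesis and export, all tested, 1 was higher and 2 were lower in Nxt1 (median log2 fold change 0.04), against 12.5% higher and 9.1% lower among all genes tested. The higher one was Ythdc1, a nuclear reader of methylated RNA, at 117 ± 1.97 FPKM in Nxt1 and 94.5 ± 1.82 FPKM in WT (SD, n = 3 each, log2 fold change 0.30). The lower ones were x16, a splicing factor, at −0.40, and mbl, whose product Muscleblind binds its own circle in flies, at −0.59 (174 ± 7.51 FPKM in Nxt1 and 263 ± 21.4 FPKM in WT, SD, n = 3 each). All 3 had an adjusted p below 0.05 by limma, but without 1 replicate the call held in 1 of 6 fits for Ythdc1, 3 of 6 for x16 and 6 of 6 for mbl. The helicase gene Hel25E, whose export role is given above, measured 27.7 ± 0.57 FPKM in Nxt1 and 28.4 ± 0.96 FPKM in WT (SD, n = 3 each, adjusted p = 0.718 by limma). The circle mbl(6-9), chosen after its values were seen, had 25 and 6 reads in Nxt1 and 4 and 22 in WT. The groups overlapped (log2 fold change 0.97, adjusted p = 0.619 by edgeR). Nothing here links mbl(6-9) to the circle that Muscleblind binds.

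Of 14 tested mRNA export genes in a list of 18, 1 was higher and 2 were lower in Nxt1. Among all genes tested, 12.5% were higher and 9.1% lower. The higher export gene was sbr, which encodes the export receptor that Nxt1 partners. The sbr mRNA measured 199 ± 8.99 FPKM in Nxt1 and 98.3 ± 3.76 FPKM in WT (SD, n = 3 each, log2 fold change 1.01, adjusted p = 0.00142 by limma). The 2 lower ones were nxf2 (−0.67) and Nxt1 itself. Of 7 genes of circle decay and innate RNA sensing, none was called by limma in either direction, against the same shares of all genes. In that list 1 gene had an unadjusted p below 0.05 by limma. In the list of muscle structure and adhesion 17 of 40 tested genes were higher and 3 lower (median 0.52), against 12.5% higher and 9.1% lower among all genes tested, and its hosts bt, Prm and tn held 6 circles of 3 or more exons. In the list of muscle excitation and calcium 4 of 17 were higher and 1 lower, against the same 12.5% and 9.1% of all genes. Prm encodes the thick filament protein paramyosin, and Prm(3-7) was listed in Nxt1 only with 4 and 12 reads while its mRNA rose by 1.37 on the log2 scale. The marker sums given above were higher in Nxt1 without overlap for muscle, epidermis, fat body, hemocytes and salivary gland, and their part in these counts was not tested.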

How the data were processed

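Circle members and gene lists were chosen with earlier results of these data known. Per the file headers, the authors gave back-splice counts and a scaled signal, and the signal was read as reads per 1e+09 library reads. For mRNA and pre-mRNA the authors deposited FPKM. STAR 2.5.3a, Trimmomatic 0.36, featureCounts 1.6.2, Subread and DESeq2 are named, without roles, in the submitters' processing notes. The sources used here name neither the genome build nor the circle caller, so positions are left out. FPKM lengths appear out of order (Spearman's rho of implied length with gene span −0.0102 in mRNA and 0.0254 in pre-mRNA), so levels of different genes were not compared, and folds on log2(FPKM + 1) understate low genes.

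The library of each count was read from the first scaled column and the deposited mean; 2 columns of scaled values were not used. Circles in both lists were tested with edgeR 4.0.16 (quasi-likelihood, R 4.3.3), with offsets of log library totals for the 2 listed libraries per genotype. Host genes were tested with limma 3.58.1 on log2(FPKM + 1) after a mean filter of 1 FPKM. Whole reads were recovered for mRNA in 15292 of 15293 genes and for pre-mRNA in 4543 of 4543 (tolerance 0.01). P-values were adjusted by Benjamini-Hochberg over all features tested, with a threshold of 0.05. The fits were run on simulated data with known changes. The simulated circle counts did not model the listing of 2 of 3 libraries, so they cannot show the effect of that listing. Named circles were the 10 most abundant in both lists, the called ones up to 6 in each direction, the 4 highest in Nxt1 only and 6 in WT only, the 4 spanning most exons with ties, and the 4 hosts with most circles, ties broken by summed scaled reads.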

Additional observations from a re-analysis of the deposited data

How the results depend on the processing

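The 7 called circles became 11 with DESeq2 1.42.0 and 12 with library factors from the circles (chosen after seeing the data). By limma they were 10 with all libraries and 4 to 10 when 1 library was left out. The share of reads kept its direction in the alternatives run, and its test could not pass the threshold with 3 against 3 libraries. The 47 hosts called in mRNA became 14 with a replicate block and 20 to 80 without 1 replicate (37 without WT replicate 2, 80 without WT replicate 3). The 5 hosts called in pre-mRNA by limma became 3 with no filter on the mean, 0 with a replicate block (25 at an unadjusted p below 0.05), 0 to 7 without 1 replicate and 19 with edgeR on recovered reads (chosen after seeing the data). Same-numbered M libraries did not deviate together (correlations of −0.0810, −0.123 and −0.286 in mRNA). No paired analysis of the circles was possible because the circle columns carry no replicate number. Log2 fold changes reversed in these cases. Gyg(2-4) was 0.059 with the median of all circles set to 0. With 1 library left out, values ranged from −0.014 to 0.58 for CG33111(3-7), −3.00 to 0.82 for l(3)80Fg(4-6), −3.27 to 0.017 for Iml1(9-12), −1.34 to 1.21 for Iml1(9-13) and −0.47 to 0.28 for the Rgk3 mRNA, which was −0.15 with edgeR on recovered reads. The causes were not tested. Hs6st(3-5) lost its call with a filter of 10 reads (adjusted p = 0.0566 by edgeR), as did CG7378(2-5) (0.0779), which also lost it with the median set to 0 (0.0806). The Nxt1 mRNA lost its call without Nxt1 replicate 1 (adjusted p = 0.0576 by limma) or 3 (0.0645), without WT replicate 1 (0.0579) and with the block (0.0749). The circle l(3)80Fg(3-6) passed without the middle Nxt1 library (adjusted p = 0.0396 by limma) and with library factors (0.0339 by edgeR). Few reads limit the precision of many circles: 3 of 62 listed in Nxt1 only and 17 of 98 listed in WT only had 50 or more.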
